A study of Homo sapiens with 12 samples.

Results

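A group of 8 nuclear long noncoding and snoRNA host RNAs, NEAT1, MALAT1, GAS5, SNHG1, SNHG5, SNHG7, SNHG8 and SNHG12, was followed across breast cancer cells with and without a BHLHE40 knockdown, untreated and under hypoxia with low glucose. Its members were fixed by symbol, with earlier results of these data known. Every probe that the platform annotation gives to one of the symbols was taken, which found 10 probes of 7 genes among the 47302 probes of the array. No probe carried the symbol NEAT1 in that annotation, so NEAT1 was not analysed here. Of the 10 probes, 8 probes of 5 genes (SNHG1, SNHG5, SNHG7, SNHG8 and SNHG12) were detected on all 12 arrays and tested. MALAT1 was detected on 0 of 12 arrays and GAS5 on 3. The values below are therefore those of 5 snoRNA host RNAs, and NEAT1, MALAT1 and GAS5 contributed no tested value.

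The cells were LM, a lung metastatic subline of the human breast cancer line MDA-MB-231. LM-EV carried a control vector, and LM BHLHE40-KD carried 1 short hairpin RNA against BHLHE40. BHLHE40 is a transcription regulator of the basic helix-loop-helix family that is known as a target of hypoxia signalling. The study cites earlier work on it as a repressor and proposes that it activates HBEGF transcription. Both lines were cultured with puromycin and were either left untreated or kept for 6 h or 48 h at 1% O2 in medium with 1 mg/ml glucose, with 2 biological repeats per group, 1 array of each group on each of 2 slides. The labels name hypoxia with low glucose, whereas the study's methods name only hypoxia for these arrays. Those methods give low glucose as 1 mg/ml in 1 place and as 1 mM in another. Each arm was a single line, so an effect of the hairpin and any other difference between those lines cannot be told apart. By the labels, hypoxia and low glucose were applied together and cannot be told apart either.

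A snoRNA host gene is transcribed as a spliced RNA whose introns are trimmed to small nucleolar RNAs (snoRNAs). Box C/D snoRNAs guide methylation and box H/ACA snoRNAs guide pseudouridylation of ribosomal and spliceosomal RNA. Many host RNAs begin with a run of pyrimidines, the 5′ terminal oligopyrimidine (TOP) motif that they share with mRNAs of ribosomal proteins, and several are kept low by nonsense-mediated decay, so that the exons of a host and its snoRNAs can be present at unrelated levels. MALAT1 is a long RNA of nuclear speckles, and NEAT1 is the scaffold of paraspeckles.

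The bases around the transcription start are shown for the 5 hosts with tested probes because a run of C and T near the start, which the choice of members did not use, can be read in each. Each window is 60 bases of RefSeq sequence on GRCh38.p14, from 40 bases before the start to 20 bases from the start on. Capitals mark the unbroken run of C and T that covers the start, and the letters TATA where they occur from 40 to 21 bases before it.
SNHG7, chr9:136728165-136728224, minus strand: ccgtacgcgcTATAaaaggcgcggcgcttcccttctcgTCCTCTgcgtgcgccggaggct
SNHG1, chr11:62855866-62855925, minus strand: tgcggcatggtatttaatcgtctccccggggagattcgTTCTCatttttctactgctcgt
SNHG8, chr4:118278722-118278781, plus strand: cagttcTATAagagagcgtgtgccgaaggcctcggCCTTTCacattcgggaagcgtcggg
SNHG5, chr6:85678714-85678773, minus strand: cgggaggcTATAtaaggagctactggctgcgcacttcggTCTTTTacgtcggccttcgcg
SNHG12, chr1:28581854-28581913, minus strand: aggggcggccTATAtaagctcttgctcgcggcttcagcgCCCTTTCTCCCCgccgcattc

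The pyrimidine run over the start was 5 bases long in SNHG1, 6 in SNHG5, SNHG7 and SNHG8, and 12 in SNHG12. Counted from the start base on, as the RNA would read, it was 11 bases in SNHG12, 5 in SNHG5, 4 in SNHG7, 3 in SNHG1 and 1 in SNHG8, so the letters before the start made up much of it in SNHG8. A covering run of at least 5 bases was found in 9.60% of all 35116 promoters in the same table. The letters TATA (a palindrome, so the same on both strands) were found in this window in SNHG5, SNHG7, SNHG8 and SNHG12, not in SNHG1, and in 5.91% of all promoters. Both features together occurred in 0.461% of all promoters. The window of GAS5 had neither, and of the 2 start sites given for MALAT1 the first had a pyrimidine run of 11 bases and the second had TATA. These are matches of letters and not measured start sites.

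The SNHG7 promoter is shown whole because SNHG7 carried the largest difference between the lines among the tested members, and because it holds the E-box CACGTG, a sequence that BHLHE40 is known to bind, in capitals (chr9:136728135-136728434, minus strand, GRCh38.p14).
SNHG7 promoter: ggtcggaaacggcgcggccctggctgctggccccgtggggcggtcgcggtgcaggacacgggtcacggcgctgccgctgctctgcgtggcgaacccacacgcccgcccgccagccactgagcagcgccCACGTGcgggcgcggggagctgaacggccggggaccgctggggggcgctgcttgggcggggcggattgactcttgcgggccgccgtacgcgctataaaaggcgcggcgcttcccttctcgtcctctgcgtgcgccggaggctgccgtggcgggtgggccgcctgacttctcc
The motif began 122 bases before the start. CACGTG (a palindrome) was searched from 250 bases before to 50 bases after the start in every promoter and was found in 7.26% of them, and among the members in SNHG7 only. These arrays do not measure binding, and whether the motif bears on the SNHG7 difference was not tested.

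On single arrays 20298 to 21830 of the 47302 probes were detected. BHLHE40 itself ran from 2716 to 6795 in normalized signal over the 6 LM-EV arrays. Over the 6 BHLHE40-KD arrays it ran from 1444 to 4324. Its log2 difference between the lines passed at no single time. In untreated cells the difference was -0.83 (adjusted p = 0.116). At 6 h it was -0.49 (adjusted p = 0.324) and at 48 h -0.46 (adjusted p = 0.365). As the mean of the 3 times it was -0.60 (SE 0.17, adjusted p = 0.0333). The labels say MDA-MB-231, and all 10 marker genes of a basal B line that have a probe were detected. Of the markers of other cells, 4 of 7 luminal, 2 of 5 fibroblast, 1 of 4 endothelial and 1 of 5 leukocyte genes were tested, and PGR, PDGFRA, COL3A1, CDH5, VWF and CD3E were detected on no array.

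BHLHE40-KD and LM-EV cells were compared first, at each of the 3 times. All 8 tested probes of the members had a lower mean in BHLHE40-KD in untreated cells and at 48 h, and 7 of 8 did at 6 h. SNHG7 had the largest difference of the 5 tested members, a fold of 2.93 to 3.56 lower on its bright probes, and it passed the test at each time. SNHG1 passed at 6 h and 48 h and SNHG8 and SNHG5 at 6 h. In untreated cells 2 of 8 probes passed as lower, both of them probes of SNHG7, where 6.62% of all 22207 tested probes did. At 6 h 5 of 8 passed (background 7.21%) and at 48 h 3 of 8 (background 5.97%), and no member probe passed as higher. The members were chosen with earlier results of these data known. These counts therefore describe the probes and are no test of the group. The median log2 difference of the 8 probes was -0.67 in untreated cells, -0.81 at 6 h and -0.64 at 48 h, while the median over all tested probes was 0.01 at 48 h. By the rule of the methods, a fold of at least 1.5 on both slides, 4, 3 and 4 of the 8 probes were lower at the 3 times, against 7.94%, 8.83% and 7.78% of all tested probes. Over all times, 4 of the 8 probes had all 6 BHLHE40-KD arrays below all 6 LM-EV arrays, which held for 7.02% of all tested probes. They belonged to SNHG1, SNHG5 and SNHG7. No such share was counted for the splits of 2 arrays against 2 or for the pairs of arrays described below. Probes of the same gene are not independent. By gene, 1 of the 5 tested members had a probe called lower in untreated cells, 4 at 6 h and 2 at 48 h. The share of all genes on this count was not computed at single times. The probe shares above are not its background.

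**Figure D1:**
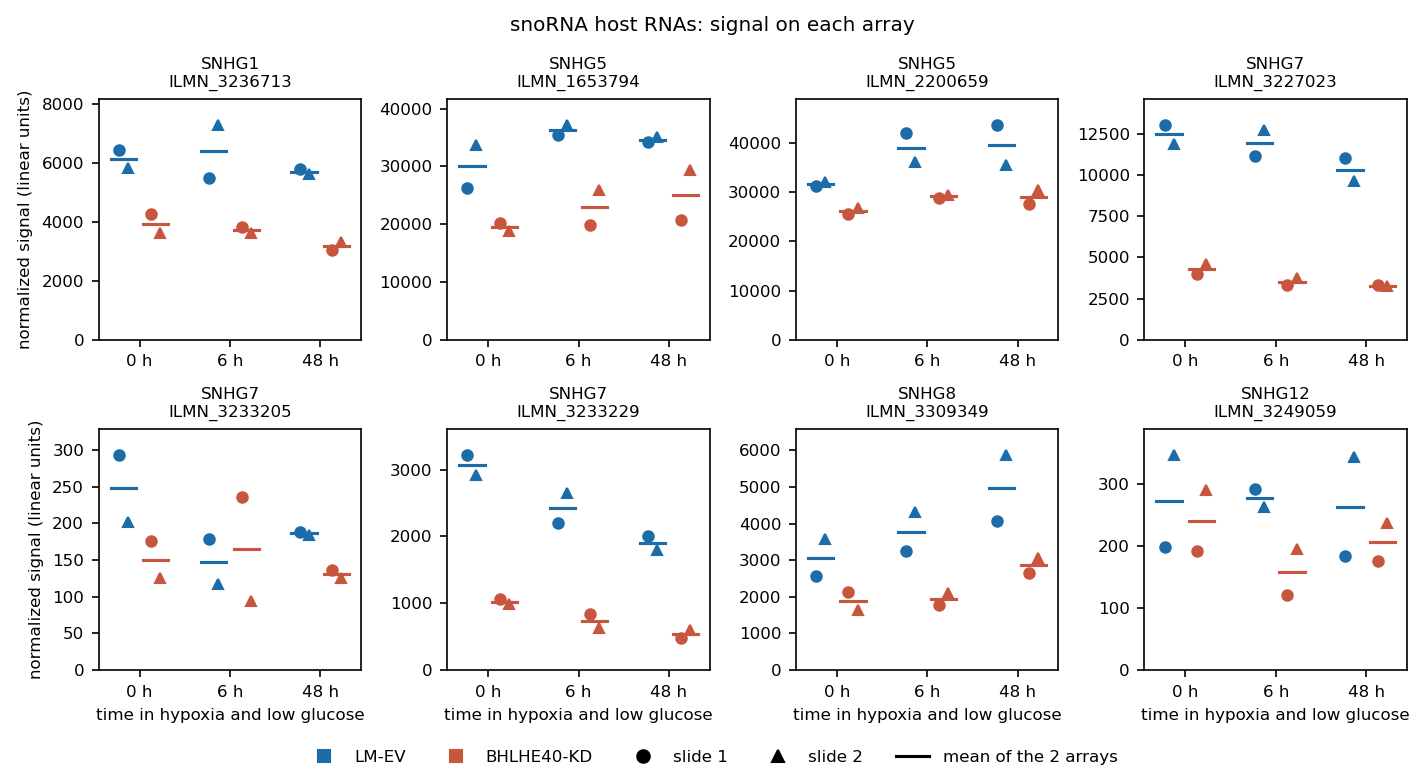
Normalized signal (linear units, each panel from 0) of the 8 tested probes on each of the 12 arrays, by time in hypoxia and low glucose, for LM-EV and BHLHE40-KD. Circles are slide 1, triangles slide 2 and horizontal lines the mean of 2 arrays. For SNHG1, SNHG7 ILMN_3227023, SNHG7 ILMN_3233229 and SNHG5 ILMN_2200659 the 6 BHLHE40-KD arrays lie below the 6 LM-EV arrays.

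SNHG7, the host of the H/ACA snoRNAs SNORA17A and SNORA17B, has 3 probes. On probe ILMN_3227023 the signals in LM-EV were 13060 and 11902 in untreated cells, 11178 and 12750 at 6 h, and 11010 and 9612 at 48 h. In BHLHE40-KD they were 3967 and 4578, 3316 and 3737, and 3315 and 3243 at the same times. The lowest LM-EV array was thus far above the highest BHLHE40-KD array. In untreated cells the log2 difference was -1.55 (SE 0.15, adjusted p = 0.00169, a fold of 2.93 lower). It was -1.76 after 6 h of hypoxia (adjusted p = 0.00101, 3.39-fold lower) and -1.65 after 48 h (adjusted p = 0.00136, 3.14-fold lower).

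The second SNHG7 probe, ILMN_3233229, gave 3217 and 2922 in untreated LM-EV cells, 2195 and 2649 at 6 h, and 2000 and 1796 at 48 h. The BHLHE40-KD arrays gave 1056 and 988, 841 and 633, and 474 and 596. Again no array of the knockdown line reached any array of the control line. Here the log2 difference of the untreated lines was -1.59 (SE 0.20, adjusted p = 0.00447). After 6 h the difference was -1.72 (adjusted p = 0.00305), and after 48 h it was -1.83 (adjusted p = 0.00261).

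The dim probe of SNHG7, ILMN_3233205, did not show a difference of this size and passed at none of the times. Its signals ran from 117 to 293 in LM-EV and from 94 to 236 in BHLHE40-KD, and over all times the lines overlapped. In untreated cells and at 48 h both BHLHE40-KD arrays were below both LM-EV arrays, and at 6 h they were not. In untreated cells the probe met the rule of the methods, with -0.74 and -0.69 on the 2 slides. The log2 differences of this probe were -0.72 in untreated cells (adjusted p = 0.157), 0.05 at 6 h and -0.51 at 48 h, with 95% intervals of -1.40 to -0.03, -0.64 to 0.73 and -1.19 to 0.17. The 3 probes of SNHG7 therefore disagreed in the size of the difference, and the interval of the dim probe at 6 h does not reach that of either bright probe. The annotation gives the dim probe the same SNHG7 transcript as the bright ILMN_3227023, and the source of their disagreement was not tested.

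SNHG1, the host of a series of box C/D snoRNAs that includes SNORD22 and SNORD25 to SNORD31, gave signals of 6437 and 5831 in untreated LM-EV cells, 5478 and 7292 at 6 h, and 5777 and 5615 at 48 h. In BHLHE40-KD its signals were 4251 and 3622, 3827 and 3627, and 3055 and 3332. The lines did not overlap. SNHG1 was lower in BHLHE40-KD by a log2 difference of -0.76 after 6 h (SE 0.17, adjusted p = 0.0319). After 48 h it was lower by a log2 difference of -0.84 (adjusted p = 0.0261), and the untreated difference of -0.64 missed the threshold (adjusted p = 0.0539). The call at 48 h was lost whichever of the 4 arrays at 48 h was left out (adjusted p up to 0.131). The call at 6 h held in 5 of the 12 fits that left out 1 array. It was lost without either LM-EV array of untreated cells or of 48 h, either BHLHE40-KD array of 6 h, or the slide 2 LM-EV array of 6 h (adjusted p up to 0.165). With no detection filter both calls were lost (adjusted p = 0.0688 for 6 h and 0.0585 for 48 h).

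SNHG8, the host of SNORA24, gave 2574 and 3569 in untreated LM-EV cells, 3241 and 4328 at 6 h, and 4063 and 5874 at 48 h. The signals in BHLHE40-KD were 2146 and 1645, 1780 and 2094, and 2643 and 3074. At each time both BHLHE40-KD arrays were below both LM-EV arrays, but over all times the lines overlapped. A log2 difference of -0.96 passed at 6 h (SE 0.22, adjusted p = 0.0349), while -0.69 in untreated cells (adjusted p = 0.0905) and -0.78 at 48 h (adjusted p = 0.0692) did not. The call at 6 h held in 4 of 12 fits that left out 1 array and was lost without either array of LM-EV untreated, LM-EV 6 h, BHLHE40-KD 6 h or BHLHE40-KD 48 h (adjusted p up to 0.174). It was also lost with no replicate block (adjusted p = 0.0597) and with no detection filter (adjusted p = 0.0977).

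SNHG5, the host of SNORD50A and SNORD50B, has 2 bright probes. On ILMN_1653794 the LM-EV signals were 26322 and 33773, 35485 and 37219, and 34255 and 35016 in the order of the times, and the BHLHE40-KD signals were 20252 and 18761, 19909 and 25982, and 20753 and 29318. On ILMN_2200659 they were 31154 and 32019, 41943 and 36038, and 43703 and 35485 in LM-EV and 25488 and 26686, 28868 and 29488, and 27565 and 30354 in BHLHE40-KD. Within each slide and time BHLHE40-KD was below LM-EV on both probes, in 6 of 6 pairs of arrays. The first passed at 6 h with a log2 difference of -0.68 (SE 0.18, adjusted p = 0.0481), which held in 2 of 12 fits with 1 array left out, those without a BHLHE40-KD array of untreated cells (adjusted p otherwise up to 0.221), and was also lost with no replicate block (adjusted p = 0.0923), no detection filter (adjusted p = 0.103) and a robust prior (adjusted p = 0.0514). It stood at -0.61 in untreated cells (adjusted p = 0.0665) and -0.49 at 48 h (adjusted p = 0.125). The second had differences of -0.28, -0.41 and -0.45 and passed at none of the times.

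SNHG12, the host of SNORA16A, SNORA44, SNORA61 and SNORD99, was dimmer, with LM-EV signals of 198 and 346, 292 and 262, and 183 and 342 and BHLHE40-KD signals of 191 and 289, 121 and 194, and 175 and 236. The lines overlapped. Its log2 difference was -0.16 in untreated cells (95% interval -0.74 to 0.43), -0.85 at 6 h (interval -1.43 to -0.27, adjusted p = 0.0656) and -0.30 at 48 h (interval -0.88 to 0.29).

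**Figure D2:**
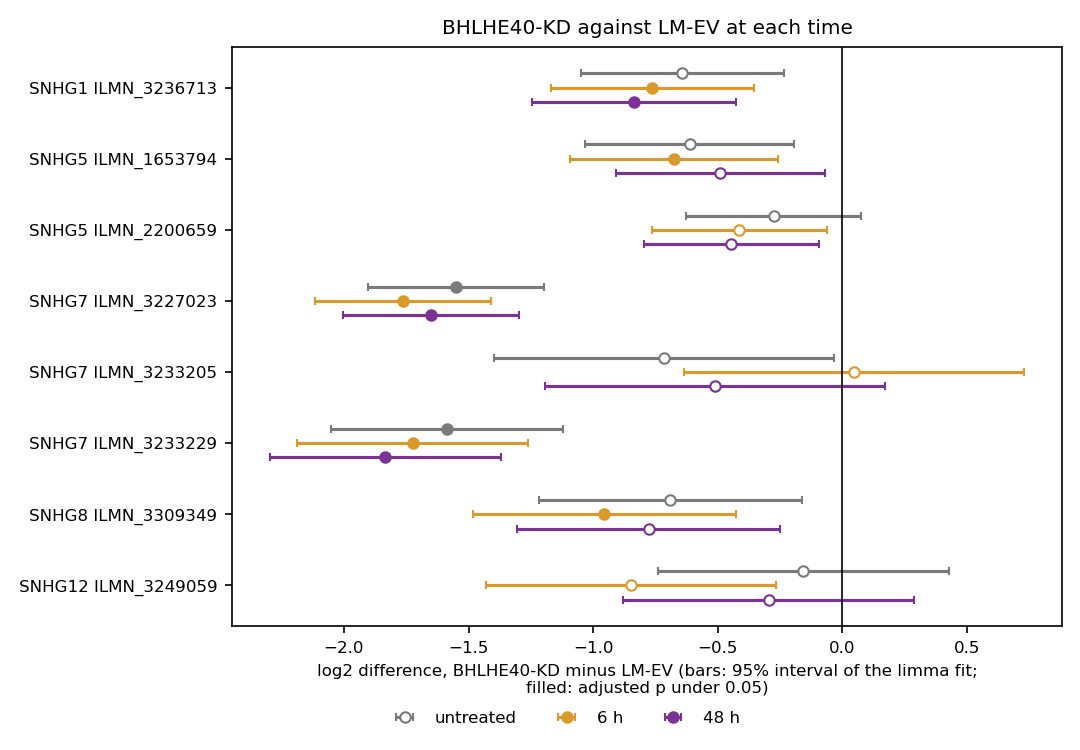
Log2 difference, BHLHE40-KD minus LM-EV, of the 8 tested probes in untreated cells, at 6 h and at 48 h. Points are the limma estimates, bars their 95% intervals, and filled points have an adjusted p under 0.05. The SNHG7 probes ILMN_3227023 and ILMN_3233229 lie between -1.55 and -1.83 at all 3 times.

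Averaged over the 3 times, 6 of the 8 probes were lower in BHLHE40-KD (background 17.3%), and they belonged to SNHG7, SNHG8, SNHG1 and SNHG5. Counted as genes with any called probe, 4 of the 5 tested members were lower. On that count 20.5% of the 12336 named genes tested were lower and 21.3% higher. The mean log2 difference was -1.65 and -1.71 for the bright SNHG7 probes (SE 0.09 and 0.11, adjusted p = 3.08e-05 and 8.05e-05), -0.81 for SNHG8 (adjusted p = 0.00318), -0.75 for SNHG1 (adjusted p = 0.00158), and -0.59 and -0.38 for the SNHG5 probes (adjusted p = 0.00436 and 0.0135). The mean differences of SNHG12 (-0.43, adjusted p = 0.0524) and of the dim SNHG7 probe (-0.39, adjusted p = 0.112) did not pass. Other genes that moved with the line were CD14 (-2.58 and -2.28 on its 2 probes), a myeloid marker that made up the only tested gene of 5 leukocyte markers, and FOXA1 (1.32) and EPCAM (0.40 to 0.58 on 3 probes), the 2 called genes among 4 tested luminal markers. PECAM1 (1.14), the only tested endothelial marker, and LUM (0.87), 1 of 2 tested fibroblast markers, were higher. Of the 10 basal B markers CD44, CAV1, ETS1 and FOSL1 were lower (-0.34 to -1.27 over their called probes) and EGFR (0.60), KRT8 (0.40) and KRT18 (0.75) higher. All these marker counts stand against the same shares of genes, 20.5% lower and 21.3% higher. The summed signal of the leukocyte list ran from 526 to 894 in LM-EV and from 92.1 to 362 in BHLHE40-KD, and that of the luminal list from 2191 to 3428 and from 4041 to 5300. The same sums were 239 to 461 and 409 to 787 for the endothelial list, 75.8 to 199.95 and 109 to 208 for the fibroblast list, and 213388 to 240372 and 176202 to 210961 for the basal B list, and their part in the result was not tested.

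The second comparison was hypoxia with low glucose against untreated cells. No member probe passed the test in either line at 6 h or 48 h, where 0.149% of all tested probes passed in LM-EV at 6 h, 0.270% in LM-EV at 48 h, 2.46% in BHLHE40-KD at 6 h and 2.24% in BHLHE40-KD at 48 h. At an unadjusted p under 0.05, 1, 2, 2 and 3 of the 8 probes passed in the same order, against 15.3%, 17.8%, 18.4% and 20.3% of all tested probes, so these counts are near the background. With the lines averaged, 0 of 8 passed at 6 h (background 7.25%; 1 of 8 at an unadjusted p under 0.05, background 24.4%) and 2 of 8 at 48 h (background 10.0%), SNHG8 as higher and SNHG7 ILMN_3233229 as lower.

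SNHG8 was higher at 48 h by a log2 change of 0.64 as the mean of both lines (SE 0.16, adjusted p = 0.0473). In LM-EV alone the change was 0.69 (adjusted p = 0.178), and in BHLHE40-KD it was 0.60 (adjusted p = 0.194). On every one of the 4 pairs of arrays of a line and slide, 48 h was above untreated. At 6 h its mean change was 0.17 (adjusted p = 0.565). The 48 h call was lost with no replicate block (adjusted p = 0.0858), no detection filter (adjusted p = 0.122) and a robust prior (adjusted p = 0.0504), and it held in 1 of 12 fits with 1 array left out, that without the slide 1 array of untreated BHLHE40-KD, with adjusted p up to 0.157 in the others.

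SNHG7 ILMN_3233229 was lower at 48 h by a log2 change of -0.82 as the mean of both lines (SE 0.14, adjusted p = 0.0178). The change was -0.69 in LM-EV (adjusted p = 0.143) and -0.94 in BHLHE40-KD (adjusted p = 0.0601), and in each line the 48 h arrays did not overlap the untreated arrays. The share of all tested probes with such a split was not counted. The averaged call held in 7 of 12 fits with 1 array left out and was lost (adjusted p up to 0.0722) without either untreated LM-EV array, the slide 2 array of LM-EV 48 h or of untreated BHLHE40-KD, or the slide 1 array of BHLHE40-KD 48 h. Its mean change at 6 h was -0.42 (adjusted p = 0.124). The bright probe ILMN_3227023 changed less, by -0.17 at 6 h and -0.33 at 48 h (adjusted p = 0.383 and 0.0976). Within an array, the log2 ratio of ILMN_3233229 to ILMN_3227023 ran from -2.21 to -1.91 on the 4 untreated arrays, from -2.56 to -1.98 at 6 h, and from -2.80 to -2.42 at 48 h. The untreated and 48 h ratios did not overlap, which shows unequal change of the probes and was noticed in the values and not tested. The annotation gives ILMN_3233229 and ILMN_3227023 different transcripts of SNHG7.

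None of the remaining probes passed. SNHG7 ILMN_3233205 had a change of -0.75 in LM-EV at 6 h (adjusted p = 0.288) and mean changes over both lines of -0.37 at 6 h and -0.28 at 48 h (adjusted p = 0.319 and 0.421). SNHG1 had mean changes of -0.01 at 6 h and -0.20 at 48 h. The SNHG5 probes had mean changes of 0.25 and 0.23 at 6 h and 0.28 and 0.23 at 48 h, all above 0 and none called (adjusted p from 0.203 to 0.269). SNHG12 had mean changes of -0.27 and -0.14. By the rule of the methods the members called were SNHG7 ILMN_3233205 (lower) in LM-EV at 6 h, SNHG7 ILMN_3233229 (lower) and SNHG8 (higher) in LM-EV at 48 h, and SNHG7 ILMN_3233229 (lower) in BHLHE40-KD at 48 h, with none in BHLHE40-KD at 6 h. The shares of all tested probes that met this rule were 7.10%, 8.52%, 9.70% and 8.97% in the order named.

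**Figure D3:**
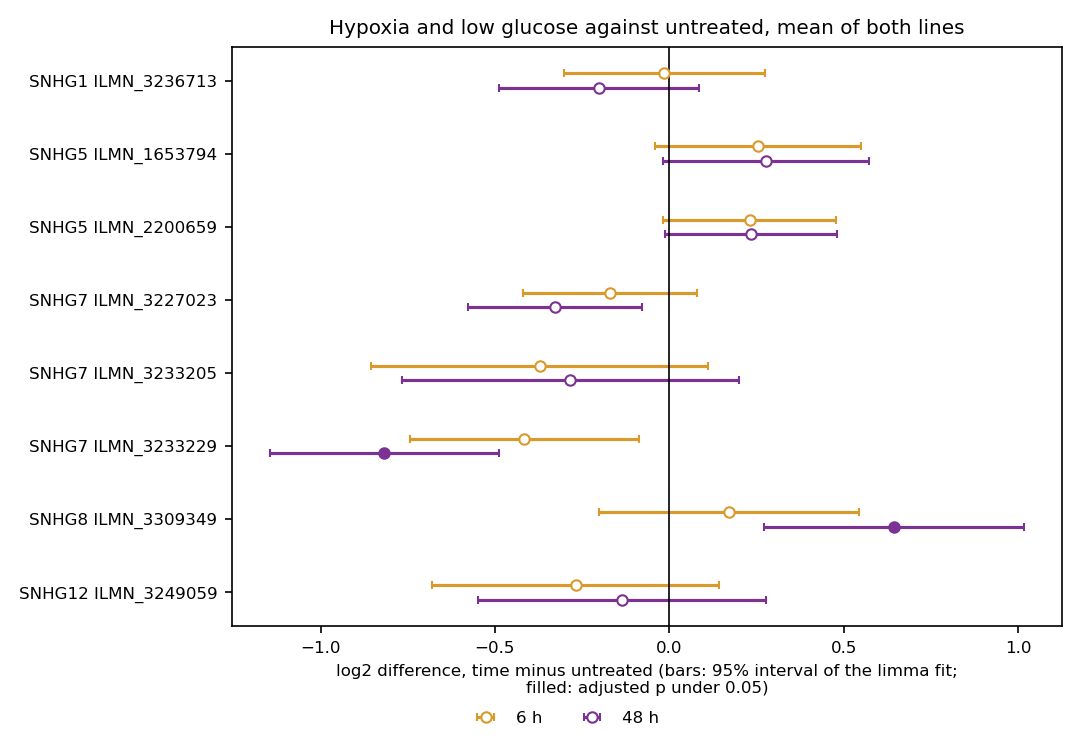
Log2 change with hypoxia and low glucose against untreated cells, mean of both lines, for the 8 tested probes at 6 h and 48 h. Points are the limma estimates, bars their 95% intervals, and filled points have an adjusted p under 0.05. At 48 h SNHG8 lies at 0.64 and SNHG7 ILMN_3233229 at -0.82.

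The interaction asks whether hypoxia changed a member differently in the 2 lines. No member probe passed at 6 h (background 0.0225%) or at 48 h (background 0.0225%), and none passed at an unadjusted p under 0.05, which 5.85% and 6.31% of all tested probes did. For SNHG7 ILMN_3227023 the interaction was -0.21 at 6 h (95% interval -0.71 to 0.29) and -0.10 at 48 h (-0.60 to 0.40), for SNHG8 it was -0.27 (-1.01 to 0.48) and -0.09 (-0.83 to 0.66), and for SNHG1 it was -0.12 (-0.70 to 0.46) and -0.19 (-0.77 to 0.38). These intervals leave room for a change in either direction. For SNHG12 it was -0.69 at 6 h (-1.52 to 0.13), and for SNHG7 ILMN_3233205 it was 0.76 at 6 h (-0.20 to 1.73), the widest member interval at that time.

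MALAT1 (ILMN_2141650) had normalized signals from -39.0 to 13.1 on the 12 arrays, with detection p-values from 0.312 to 0.929. GAS5 (ILMN_1754378), a host of many box C/D snoRNAs whose spliced RNA accumulates in arrested cells, had signals from -9.02 to 64.04 and was detected on 1 of 2 arrays in LM-EV at 48 h (53.2), untreated BHLHE40-KD (64.04) and BHLHE40-KD at 48 h (62.0). Those values lie near the lowest signal of a detected probe, which was 42.2 to 51.8 by array. Neither RNA was resolved by these probes, which says nothing of its level in the cells.

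The snoRNAs inside the members were read from their own probes. RefSeq places 29 snoRNA genes within the members, of which 23 had a probe and 12 a tested one. Averaged over the 3 times, 2 of the 12 were lower in BHLHE40-KD and 0 higher, a count near the 17.3% of all tested probes. They were SNORD25 within SNHG1 (-0.40, adjusted p = 0.0432) and SNORA16A within SNHG12 (-0.76, adjusted p = 0.0138). SNORA16A had mean signals of 85.9, 43.8 and 54.2 in LM-EV and 38.9, 48.4 and 22.2 in BHLHE40-KD in the order of the times, most of them at or under the lowest signals of detected probes, so its difference is not resolved. SNORA17A, within SNHG7, had a difference of -0.42 that did not pass (adjusted p = 0.272), SNORA24 within SNHG8 had -0.25 (adjusted p = 0.271), and SNORD50B within SNHG5 had -0.24 (adjusted p = 0.509). The highest signal of SNORD50B on any array was 51.5, at the level of the lowest signals of detected probes. Its difference is therefore not resolved. The highest signal was 92.8 for SNORA17A and 238 for SNORA24. SNORD25 was higher with hypoxia, with mean changes over both lines of 0.88 after 6 h (adjusted p = 0.0208) and 0.87 after 48 h (adjusted p = 0.0192), whereas its host SNHG1 had changes of -0.01 and -0.20. SNORD22, SNORD30 and SNORD31, also within SNHG1, had changes of -0.20, -0.56 and -0.52 at 6 h that did not pass. Whether a snoRNA probe reads the mature snoRNA or the unspliced host was not tested.

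Other snoRNA hosts gave 10 genes with tested probes out of 27 listed. Counts over lists are of genes with any called probe, and as background 20.5% of the 12336 named genes tested were lower and 21.3% higher in BHLHE40-KD on this count, averaged over the 3 times. Of the 10 hosts, 5 were lower (EPB41L4A-AS1, SNHG4, SNHG6, DANCR and SNHG15) and 2 higher (SNHG9 and SNHG11), with a median log2 difference of -0.24 over 12 probes against -0.67 over the 8 member probes and 0.01 over all tested probes. EPB41L4A-AS1, the host of SNORA13, had mean signals of 4065, 6052 and 5663 in LM-EV and 1712, 1838 and 2296 in BHLHE40-KD, a mean log2 difference of -1.40 (SE 0.09, adjusted p = 7.96e-05). SNHG4 differed by -1.22 (adjusted p = 0.000234) and SNHG6 by -0.47 (adjusted p = 0.0022), while SNHG9 differed by 0.44 (adjusted p = 0.00437). Both EPB41L4A-AS1 and SNHG4 passed as lower at each of the 3 times. With hypoxia, as the mean of both lines, SNHG15, SNHG11 and SNHG17 were lower at 6 h (-0.73 and -0.74 on the SNHG15 probes, -0.64 and -0.64), and SNHG6 (0.68), SNHG32 (1.37 and 0.56) and ZFAS1 (0.48) were higher at 48 h, none of which was called at the other time. SNHG8 is the only member called in the same direction as these at 48 h.

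**Figure D4:**
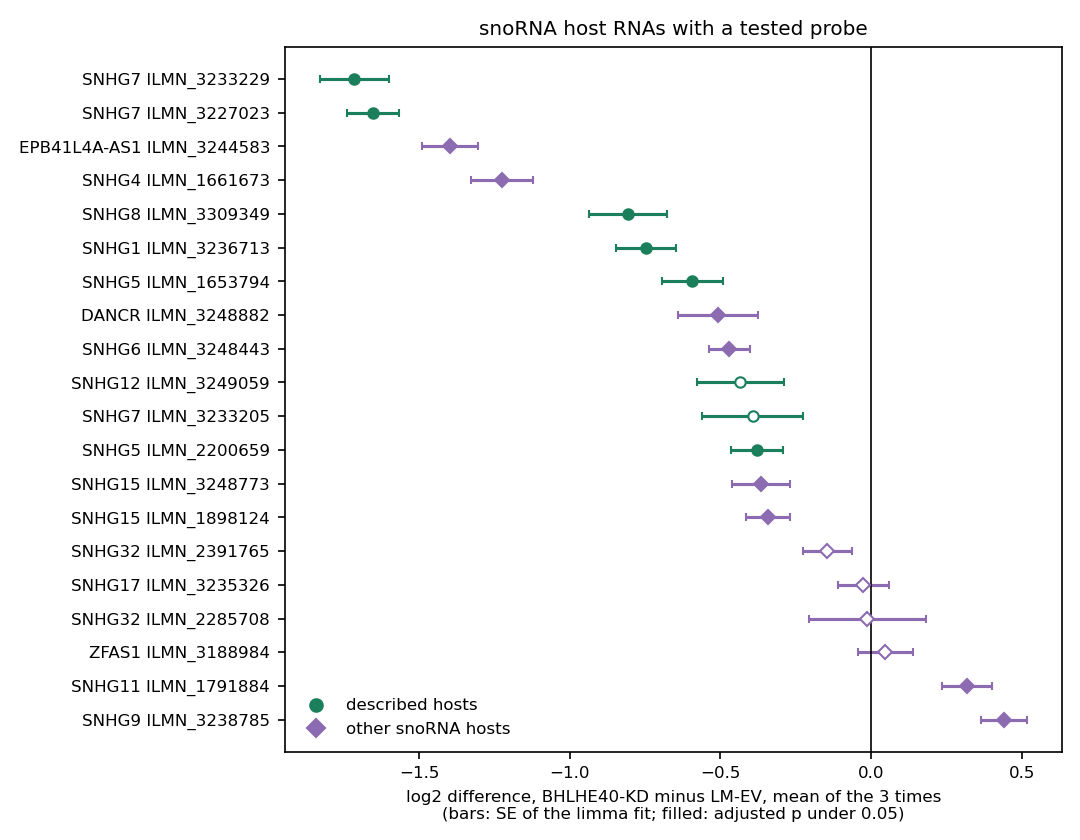
Log2 difference, BHLHE40-KD minus LM-EV, averaged over the 3 times, for every tested probe of the 5 described hosts (circles) and of 10 other snoRNA hosts (diamonds). Bars are the SE of the limma fit and filled symbols have an adjusted p under 0.05. The bright SNHG7 probes lie lowest, at -1.65 and -1.71, followed by EPB41L4A-AS1 at -1.40.

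Genes of the pathways in which the members act were read from lists, with the line difference averaged over the 3 times unless stated, and read against the shares of genes given above. With hypoxia, as the mean of both lines, 5.98% of genes were lower at 6 h, and 6.67% were higher and 6.82% lower at 48 h. For higher at 6 h the share of genes was not computed, and 2.93% of all tested probes were higher. Of 18 tested genes with TOP mRNAs outside the ribosome (translation factors and the like), 10 were lower in BHLHE40-KD and 0 higher (median log2 difference -0.20), with EEF1A1, a gene with many near-identical copies, at -0.68 on probe ILMN_3251737 (adjusted p = 0.000976), EIF3F at -0.41 (adjusted p = 0.0071), EIF3L at -0.35 and -0.41, and FAU at -0.39 (adjusted p = 0.00851). With hypoxia 0 of the 18 passed at 6 h and EEF1A1 alone, as higher (0.51), at 48 h. Of 14 box C/D snoRNP protein genes 5 were lower and 0 higher, among them NUFIP1 (-0.88 and -0.68), an assembly factor, NOLC1 (-0.52), FBL (-0.33), the methyltransferase, and SNU13 (-0.33). Of 6 box H/ACA protein genes 2 were lower, NHP2 on 4 probes from -0.77 to -0.88 and NAF1 at -0.37. At 6 h of hypoxia the C/D core proteins NOP56 (-0.68 to -0.81 on 3 probes) and NOP58 (-0.52) and the factor NUFIP1 (-1.12) were lower as the mean of both lines, and of the H/ACA genes SHQ1 (-0.53).

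Of 17 tested factors of nonsense-mediated decay, 2 were lower (EIF4A3 at -0.57 and ETF1 at -0.44 and -0.48) and 2 higher (SMG6 at 0.45 and MAGOHB at 0.97), with a median of 0.01, both counts under the background. With hypoxia, NBAS was higher at 6 h and 48 h (0.54 and 0.57) and MAGOHB lower at 6 h (-2.40). Other long noncoding RNAs went both ways: of 14 tested, 4 were lower, with the telomerase RNA TERC at -1.63 (adjusted p = 0.000259) and DLEU1 at -0.98 and -0.79, and 5 higher, with UCA1 at 1.02 and GABPB1-AS1 at 1.04. With hypoxia RPPH1, the RNA of RNase P, was lower at 6 h (-1.54) and 48 h (-1.48), and CYTOR and DLEU1 were lower at 48 h.

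The protein partners of the RNAs without a tested probe were measured even so. Of 27 paraspeckle protein genes 6 were lower in BHLHE40-KD, near the background of 20.5%, among them PSPC1 (-0.59 on 2 probes), MATR3 (-1.74 on 1 probe), HNRNPK (-0.44) and HNRNPF (-0.59), and TARDBP (0.38) was higher. PSPC1 was also lower with hypoxia at 6 h (-0.66) and 48 h (-0.45), as was CIRBP (-0.69 and -0.38). Of 25 nuclear speckle protein genes 3 were higher (ACIN1, THRAP3 and SRRM2, from 0.29 to 0.37) and CLK4, a kinase of splicing factors, lower (-1.004). At 6 h of hypoxia 7 of them were lower, led by SRSF6 (-1.01), SRSF3 (-1.004 and -1.40), SRSF2 (-0.75) and CDK12 (-0.67), and RBM39 was higher (0.72), while at 48 h SRSF2 (-0.41) and SRSF3 (-0.46) were lower. Of 22 genes of the 3′ processing of MALAT1 and NEAT1, 3 were higher in BHLHE40-KD, with RPP25, a protein of RNase P, at 0.90 (adjusted p = 0.000194), RPP21 at 0.44 and CPSF2 at 0.52 and 0.61, and 3 lower, with METTL3 at -0.49. At 6 h of hypoxia RPP25 (-0.84), POP1 (-1.08), RPPH1 and WTAP (-0.57) of this list were lower, and at 48 h RPP25 (-0.58), RPPH1 and WTAP (-0.43). Of 10 tested known hypoxia targets 5 were higher at 6 h and 5 at 48 h as the mean of both lines, with DDIT4 at 1.64 at 6 h and NDRG1 at 2.13 at 48 h, and 3 of the 10 (VEGFA, DDIT4 and ANGPTL4) were higher in BHLHE40-KD than in LM-EV.

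Protein-coding genes next to the hosts in the order of GRCh38.p14 gave no call between the lines. The mean log2 difference was -0.07 for WDR74 and -0.02 and -0.21 for SLC3A2, on either side of SNHG1, -0.04 for SYNCRIP and 0.14 for HTR1E beside SNHG5, 0.28 for PRSS12 beside SNHG8 (adjusted p = 0.0796), and 0.09 and 0.08 for TRNAU1AP beside SNHG12. DIPK1B and LCN10, the neighbours of SNHG7, had no tested probe.

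The probes whose pattern was most like that of each host were found by Pearson correlation of log2 values over the 12 arrays with the slide mean removed, among 13489 to 13491 probes of other named genes detected on all arrays. The nearest to SNHG7 ILMN_3227023 was ERI1 (r = 0.993), followed by ATP6V1B2 and PODXL2. For SNHG1 they were ZNF580 (0.979), TSPAN17 and PDHB, for SNHG8 FNDC4 (0.981), LIMCH1 and LXN, for SNHG5 ILMN_2200659 CLN8 (0.949), RPS14 and USP4, and for SNHG12 SHFL (0.905), XPA and NET1. The 12 arrays share 2 lines, so these values describe how alike the probes follow the line and the time and carry no test.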

How the data were processed

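RNA of 12 cultures was hybridized to Illumina HT-12 bead arrays. Per the study's methods, the authors made the deposited normalized intensity values in GenomeStudio (no version given in the sources used here) by background subtraction and quantile normalization. The deposited detection p-value ranks a probe's signal among that array's negative controls. Average bead signals, a deposited intensity column, were used only as an alternative on slide 1, since the bead columns of 5 slide 2 arrays do not follow their normalized columns and 3 of these are copies of others. Quantile normalization removes any shift common to all probes.

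Intensities under 16 (38.7% of values) were set to 16 and log2 was taken. Probes were kept where a group had a detection p under 0.05 on both its arrays (22207 of 47302). They were fitted with limma 3.58.1 in R 4.3.3 on group means (6) plus slide (degrees of freedom: 5 residual, 2.22 prior; median SE 0.21, 0.29 for interactions). Calls are Benjamini-Hochberg adjusted p under 0.05 within a contrast over all tested probes. A difference between 2 arrays and 2 arrays cannot go below p = 0.333 in an exact permutation test. Chip numbers in the labels put 1 array of each group on each slide, and the slide was the block; that a slide holds 1 repeat of the experiment is not stated. Deviations of same-slide arrays correlated from -0.01 to 0.26 over 15 pairs of groups (median 0.14, 12 over 0.1). The repeats are called biological by the series text, and their number limits the precision.

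The annotation gives 1 symbol to 30105 probes, several to 8 and none to 17189. Named were all member probes, BHLHE40, up to 4 genes per list and contrast with the smallest adjusted p past the threshold, and the 3 probes most alike; further called genes are named to complete counts and were chosen after their values were seen. Of a list, a gene counts as called if any of its probes passed. The members and lists were chosen with earlier results of these data known. The fit was tested on simulated data. Alternatives were another floor, an added constant, a stricter and no filter, no block, 1 probe per gene, an intensity trend, a robust prior, bead signals, the rule of the methods, each slide alone and leaving out each array. Sequences are RefSeq's, on GRCh38.p14; all members but NEAT1 matched. The array files name no build.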

Additional observations from a re-analysis of the deposited data

How the results depend on the processing

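No called result changed direction, and the SNHG7 calls of ILMN_3227023 and ILMN_3233229 between the lines held in all 12 fits that left out 1 array and in each other alternative run. The counts of called member probes moved as follows. For BHLHE40-KD against LM-EV in untreated cells the 2 probes became 4 with a floor of 64, 5 with an added constant of 100, 5 with the strict filter (detection p under 0.01 on all arrays), 5 with an intensity trend, 4 by the rule of the methods, and 2 with 1 probe per gene (where the bright SNHG7 probe alone had been called among those kept). At 6 h the 5 became 2 with no detection filter, 3 with no replicate block and 3 by the rule of the methods, and at 48 h the 3 became 6 with an intensity trend. For hypoxia in LM-EV at 6 h the 0 became 1 by the rule, and at 48 h 1 with the added constant, 2 with the trend and 2 by the rule. In BHLHE40-KD at 48 h the 0 became 1 with the floor of 64, the added constant, the strict filter, the trend and the rule. With the lines averaged, the 0 at 6 h became 1 with the trend, and the 2 at 48 h became 1 with no detection filter, with no replicate block and with a robust prior. Without single replicates the counts ranged from 2 to 3 in untreated cells, 2 to 5 at 6 h, 2 to 4 at 48 h, 6 to 7 for the line difference averaged over times and 0 to 2 for 48 h against untreated with the lines averaged, and stayed at 0 for the others. In these fits a group left with 1 array is assumed to vary like the others. Fewer arrays leave fewer degrees of freedom, and the cause of the other moves was not tested. The block changed no other count by over 1.5 times. Signals of 42.2 to 51.8 are at the limit of detection, and differences near that level, as for GAS5, are not resolved.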
